A study of Homo sapiens with 9 samples.

Results

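The gene set described here covers glucose uptake, glycolysis and the use of pyruvate, from the glucose transporters to lactate dehydrogenase and the pyruvate dehydrogenase complex. It was defined by name, with 32 listed genes, and each gene was read from its brightest probe set that carries a single gene symbol. In all, 30 of the 32 genes were measured, out of 19775 genes on the array, while the lactate carriers SLC16A1 and SLC16A3 are not analysed here. The RNA came from the established human line H69, which derives from small cell lung cancer and keeps neuroendocrine features. The cells were kept in complete RPMI medium for 24 h with PIK75 at 100 nM, with TGX221 at a dose labelled 1 mM, or with DMSO as the control, and each group had 3 arrays (PIK75 and control replicates 1, 3 and 5, TGX221 replicates 2, 3 and 5). PIK75 is known mainly as an inhibitor of the p110alpha form of phosphoinositide 3-kinase (PI3K), and TGX221 as an inhibitor of p110beta. All 3 groups are 1 cell line, and the labels do not say whether the replicates were separate cultures, so every p-value here rests on differences among arrays that may be technical only. In bulk RNA, fewer cells of a type and less RNA per cell cannot be told apart.

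Glycolysis splits a molecule of glucose into pyruvate. Hexokinase and phosphofructokinase are its main entry and control points, and the enzymes from glyceraldehyde-3-phosphate dehydrogenase onwards return ATP and NADH. Lactate dehydrogenase then reduces pyruvate to lactate in the cytosol, or the mitochondrial pyruvate carrier brings it to the pyruvate dehydrogenase complex, which makes acetyl-CoA. PI3K and AKT signalling, the hypoxia-inducible factors and MYC are known to raise expression of many of these genes, and fast-growing tumour cells commonly convert much of their glucose to lactate.

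The deposited values were RMA log2 intensities, so 1 unit is a doubling of the probe set's signal. The arrays had gene medians of 8.20 to 8.23. The interquartile range of the gene values was 2.48 to 2.57 on the PIK75 arrays and 2.71 to 2.77 on the TGX221 arrays, against 2.78 to 2.83 on the control arrays. The difference between the 3′ and 5′ actin control probe sets, a gauge of RNA integrity and of labelling, was 0.467, 0.535 and 1.13 in PIK75 replicates 1, 3 and 5 and 0.256 to 0.415 in the TGX221 arrays, against 0.239 to 0.443 in the control arrays. PIK75 replicate 5 stood apart in this measure, and counts without that array and with the actin difference as a covariate are given with the results. The 18 hybridization spike probe sets read 0.35 log2 units higher with PIK75 than in the control, and 0.06 higher with TGX221, while the 27 poly-A spike probe sets differed by 0.09 and −0.06, so a scaling to the hybridization spikes lowers every PIK75 value by 0.35. Of the neuroendocrine markers, 8 were measured and had control means of 9.18 to 13.2. A gauge of background, 16 genes of unrelated tissues, had control means of 5.63 to 8.44, while 4 leukocyte markers lay at 5.97 to 7.10 and 6 fibroblast markers at 6.26 to 9.30. With PIK75, 25.2% of all genes were lower and 35.2% higher than in the control by limma at an adjusted p below 0.05. Among genes with a mean log2 value of at least 10, 48.6% were lower. Of the 8 neuroendocrine markers, 5 were lower with PIK75 and 1 higher, and 3 of 4 epithelial markers were lower. In the same comparison 5 of the 6 fibroblast markers, 2 of the 4 leukocyte markers and 2 of 4 endothelial markers were higher and 0 lower, and with TGX221 no marker of these 5 lists was called. Of the 16 gauge genes, 1 was lower with PIK75 (−0.68) and 3 higher, so the top of the gauge may hold some signal. The median of the gauge was 7.06 in control cells and 7.26 with PIK75. The part of these shifts in the results below was not tested.

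With PIK75, transcripts of most steps of the pathway were lower than in control cells. Of the 30 measured members, 21 were lower and 2 were higher by limma at an adjusted p below 0.05, and 7 did not pass. Over all 19775 genes, 25.2% were called lower and 35.2% higher. The members' median log2 difference was −0.46, against 0.09 over all genes. A decrease of at least 1.5-fold was called in 13 members, against 10.4% of all genes. The members are bright genes as a rule, with mean log2 values over the 9 arrays between 7.25 and 14.6, and bright genes were called lower more often. Among the 20 members with a mean of at least 10, 15 were lower, with a median of −0.50, while 48.6% of the 3487 genes of that brightness were called lower, with a median of −0.13. This brightness split was added after the values had been seen. Leaving out PIK75 replicate 5 gave 19 members lower and 2 higher. With the actin difference as a covariate, 15 members were lower and 0 higher, with a median of −0.38.

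**Figure D1:**
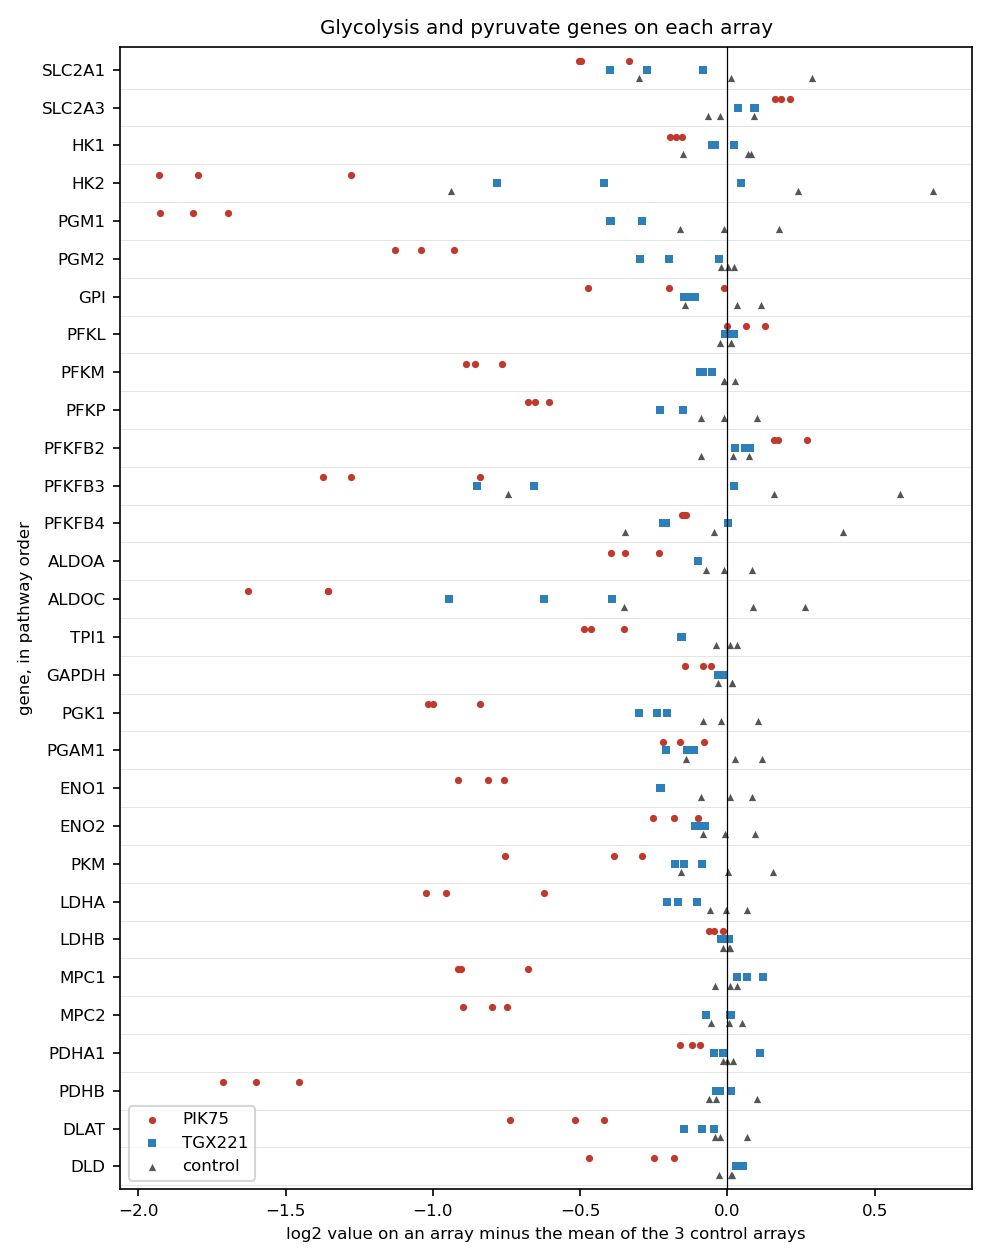
Each row is a member in pathway order, with a point for each array at its log2 intensity minus the mean of the 3 control arrays. Color and marker give the group, PIK75, TGX221 or control. The PIK75 points lie on average farthest below 0 for PGM1, HK2, PDHB and ALDOC, whose log2 differences from the control were −1.81, −1.67, −1.59 and −1.45.

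The promoters of 4 members are shown, because PGM1 and PDHB were the members with the smallest adjusted p, and PGK1 and LDHA are textbook targets of the hypoxia-inducible factors. Each window runs from 250 bases before to 50 bases after the start site in RefSeq on GRCh38.p14, 5′ to 3′ on the gene's strand. Capitals mark GCGTG or ACGTG on either strand, the core of the hypoxia response element. The windows are chrX:78103998-78104297 on the plus strand for PGK1, chr11:18394313-18394612 on the plus strand for LDHA, chr1:63593161-63593460 on the plus strand for PGM1 and chr3:58433783-58434082 on the minus strand for PDHB.
PGK1: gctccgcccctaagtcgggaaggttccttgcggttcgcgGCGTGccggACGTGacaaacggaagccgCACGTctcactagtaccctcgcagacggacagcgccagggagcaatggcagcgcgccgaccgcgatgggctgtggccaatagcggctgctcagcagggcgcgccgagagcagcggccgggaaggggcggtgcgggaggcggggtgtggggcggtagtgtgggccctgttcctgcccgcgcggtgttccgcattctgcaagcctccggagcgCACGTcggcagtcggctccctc
LDHA: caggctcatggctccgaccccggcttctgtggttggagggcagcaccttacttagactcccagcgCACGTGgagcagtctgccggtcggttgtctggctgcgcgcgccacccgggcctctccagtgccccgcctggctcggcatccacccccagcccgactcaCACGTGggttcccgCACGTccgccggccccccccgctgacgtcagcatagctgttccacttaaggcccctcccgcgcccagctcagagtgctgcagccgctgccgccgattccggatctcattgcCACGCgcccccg
PGM1: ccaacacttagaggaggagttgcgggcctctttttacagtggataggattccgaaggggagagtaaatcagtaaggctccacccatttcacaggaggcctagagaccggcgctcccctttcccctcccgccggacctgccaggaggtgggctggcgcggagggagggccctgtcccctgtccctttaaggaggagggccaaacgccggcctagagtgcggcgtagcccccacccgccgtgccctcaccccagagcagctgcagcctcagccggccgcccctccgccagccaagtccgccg
PDHB: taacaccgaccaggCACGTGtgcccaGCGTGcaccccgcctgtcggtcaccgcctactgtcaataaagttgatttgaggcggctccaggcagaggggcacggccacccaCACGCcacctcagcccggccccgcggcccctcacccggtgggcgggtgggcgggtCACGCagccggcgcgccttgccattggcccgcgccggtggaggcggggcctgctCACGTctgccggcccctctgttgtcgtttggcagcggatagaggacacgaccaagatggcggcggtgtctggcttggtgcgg
The PGK1 window held 4 matches, the LDHA window 6 and the PDHB window 6, whereas the PGM1 window held 0. The E-box CACGTG contains ACGTG on both strands, so each E-box counts as 2 of these matches. RefSeq windows were matched for 28 of the 30 members. GCGTG or ACGTG was present in 21 of those 28 windows (75%), against 48.4% of all 35116 windows of this length. Among the members called lower with PIK75, 15 of 21 windows (71.4%) held it, and among the other members 6 of 7 (85.7%). A match of these letters is a description of the sequence only. CACGTG alone was present in 5 of the 28 windows (17.9%), against 7.26% of all windows.

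At the cell surface, the main glucose transporter of most tumour cells, SLC2A1 (GLUT1), was lower with PIK75. Its log2 values were 8.69, 8.86 and 8.70 with PIK75, against 9.21, 9.48 and 8.90 in control cells, a 1.36-fold decrease (−0.44, SE 0.12, adjusted p = 0.00846). The groups did not overlap, but control replicate 5 lay close to the highest PIK75 array. The high-affinity transporter SLC2A3 (GLUT3) was 1.14-fold higher, at 7.33 to 7.38 with PIK75 against 7.10 to 7.26 in control cells (adjusted p = 0.011). These levels lie within the range of the background gauge, and the direction of SLC2A3 turned with scaling to the hybridization spikes (−0.17, adjusted p = 0.0566).

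Hexokinase traps glucose in the cell as glucose 6-phosphate, and its inducible form HK2 had the second-largest decrease of the set. HK2 read 8.92, 9.57 and 9.05 with PIK75, against 11.09, 11.55 and 9.91 in control cells, and every PIK75 array was below every control array. The difference was −1.67 on the log2 scale, a 3.18-fold decrease (SE 0.33, 95% interval −2.40 to −0.94, adjusted p = 0.0011). The control arrays differed among themselves by up to 1.64, with replicate 5 the lowest. The other 2 HK2 probe sets were dimmer (means 8.02 and 6.56) and were not called, at −0.01 and −0.09. The constitutive form HK1 differed far less, at 10.19 to 10.23 with PIK75 against 10.23 to 10.46 in control cells (−0.17, adjusted p = 0.0338). The HK1 call was lost in 9 of 22 other settings, with adjusted p up to 0.658.

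Phosphoglucomutases interconvert glucose 1-phosphate and glucose 6-phosphate and so join glycogen to glycolysis. PGM1 had the largest fold decrease of the members, at 8.24, 8.36 and 8.13 with PIK75 against 10.04, 10.22 and 9.89 in control cells. The difference was 3.51-fold (−1.81, SE 0.08, adjusted p = 5.58e-09), many times the spread within either group. PGM2, which acts mainly on pentose phosphates, was 2.04-fold lower, at 9.14, 8.94 and 9.03 with PIK75 against 10.05, 10.09 and 10.07 in control cells (adjusted p = 1.45e-07).

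Glucose-6-phosphate isomerase, GPI, did not pass the test, at 11.81 to 12.27 with PIK75 against 12.14 to 12.40 in control cells (−0.23, adjusted p = 0.0641). Phosphofructokinase, the committed step, has muscle, platelet and liver type subunits, and these did not behave alike. The muscle type PFKM read 9.58, 9.55 and 9.67 with PIK75, against 10.42, 10.42 and 10.46 in control cells, a 1.79-fold decrease (−0.84, adjusted p = 4.62e-08). The platelet type PFKP was 1.56-fold lower, at 10.03 to 10.10 with PIK75 against 10.61 to 10.80 in control cells (adjusted p = 1.46e-06). The liver type PFKL was not called, at 9.85 to 9.98 with PIK75 against 9.83 to 9.86 in control cells (0.06, 95% interval −0.05 to 0.17, adjusted p = 0.296). Its other probe set, with a mean of 9.74, was called higher (0.19, adjusted p = 0.0459 among all single-symbol probe sets).

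The bifunctional PFKFB enzymes set the level of fructose 2,6-bisphosphate, the activator of phosphofructokinase. PFKFB3, whose kinase activity far exceeds its phosphatase activity, read 8.69, 9.23 and 8.79 with PIK75, against 10.23, 10.65 and 9.32 in control cells. It was 2.24-fold lower (−1.16, SE 0.29, adjusted p = 0.0046), with all PIK75 arrays below the control arrays and, as for HK2, control replicate 5 lowest. With the actin difference as a covariate the PFKFB3 call was lost (adjusted p = 0.0623). PFKFB2 was 1.15-fold higher in its brightest probe set, at 9.26 to 9.38 with PIK75 against 9.02 to 9.18 in control cells (adjusted p = 0.00995). A dimmer PFKFB2 probe set went the other way (−0.999, adjusted p = 5.79e-08 among all single-symbol probe sets), so the direction of PFKFB2 is uncertain. PFKFB4 was not called, at 8.13 to 8.15 with PIK75 against 7.94 to 8.68 in control cells (−0.15, adjusted p = 0.363).

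Aldolase cleaves fructose 1,6-bisphosphate. The brain type ALDOC read 8.08, 7.81 and 8.08 with PIK75, against 9.52, 9.69 and 9.08 in control cells, a 2.73-fold decrease (−1.45, SE 0.16, adjusted p = 6.68e-06). The PIK75 mean of ALDOC, 7.99, lies at the top of the background gauge on the same arrays (5.76 to 7.99), so this fold may be no more than a lower bound. The muscle type ALDOA, among the brightest of the set, was 1.25-fold lower (−0.32), at 13.27 to 13.43 with PIK75 against 13.59 to 13.75 in control cells (adjusted p = 0.000538). A dimmer ALDOA probe set, with a mean of 10.3, was lower by more (−0.89, adjusted p = 1.98e-05 among all single-symbol probe sets). The size of the ALDOA decrease thus depends on the probe set. Triose phosphate isomerase, TPI1, was 1.35-fold lower, at 13.07 to 13.20 with PIK75 against 13.52 to 13.59 in control cells (adjusted p = 1.86e-05).

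In the ATP-yielding steps of the pathway the decreases differed by step. Phosphoglycerate kinase, PGK1, makes the first ATP, and read 12.92, 13.10 and 12.94 with PIK75 against 13.92, 14.04 and 13.86 in control cells. It was 1.93-fold lower (−0.95, adjusted p = 1.31e-07), and all 6 of its probe sets were lower, by −0.48 to −1.75. Enolase 1, ENO1, which makes phosphoenolpyruvate, read 12.67, 12.61 and 12.51 with PIK75, against 13.43, 13.51 and 13.33 in control cells, a 1.78-fold decrease (adjusted p = 1.95e-07). The neuronal enolase ENO2, a marker of neuroendocrine tumours, was 1.13-fold lower, at 10.88 to 11.04 with PIK75 against 11.05 to 11.23 in control cells (adjusted p = 0.0219), a call lost in 4 of 22 other settings. Pyruvate kinase, PKM, was 1.39-fold lower, at 9.01 to 9.47 with PIK75 against 9.60 to 9.92 in control cells (adjusted p = 0.00238). GAPDH, often used as a loading control, was not called, at 14.47 to 14.56 with PIK75 against 14.58 to 14.63 in control cells (−0.10, adjusted p = 0.104). Phosphoglycerate mutase, PGAM1, was not called either, at 12.18 to 12.32 with PIK75 against 12.26 to 12.52 in control cells (−0.15, adjusted p = 0.0709).

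At the end of the pathway the 2 lactate dehydrogenase subunits separated. LDHA, the form that favours lactate production, read 13.21, 13.62 and 13.28 with PIK75, against 14.23, 14.31 and 14.18 in control cells, a 1.82-fold decrease (−0.87, SE 0.09, adjusted p = 4.11e-06). LDHB read 13.79, 13.82 and 13.77 with PIK75, against 13.84, 13.84 and 13.82 in control cells (−0.04, 95% interval −0.14 to 0.06, adjusted p = 0.451). The interval of the LDHB difference holds changes of at most 0.14 log2 units in the lower direction, far below the decrease of LDHA.

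Of the 6 members that act on pyruvate in the mitochondrion, 5 were lower with PIK75 and 1, PDHA1, was not called. Over all genes 25.2% were lower. All 6 had a mean log2 value of at least 10, and 48.6% of genes that bright were lower. The control arrays of MPC1, MPC2 and PDHB lay closer together than those of HK2 or PFKFB3. MPC1 and MPC2 form the carrier that brings pyruvate into the mitochondrion. MPC1 read 10.48, 10.25 and 10.26 with PIK75, against 11.19, 11.12 and 11.17 in control cells, a 1.78-fold decrease (adjusted p = 4.69e-07). MPC2 read 11.17, 11.03 and 11.12 with PIK75, against 11.93, 11.87 and 11.97 in control cells, a 1.76-fold decrease (adjusted p = 1.41e-07). In these brightest probe sets the decreases of the partner subunits differed by less than their standard errors (0.07 and 0.06 on the log2 scale). A dim second MPC1 probe set, with a mean of 7.09, went the other way (0.34, adjusted p = 0.000536 among all single-symbol probe sets). The second MPC2 probe set, with a mean of 8.01, was lower by more (−1.38, adjusted p = 1.26e-08 among the same probe sets).

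In the pyruvate dehydrogenase complex, which commits pyruvate to the citrate cycle, the E1 beta subunit PDHB was lower by more than the other members of the complex. PDHB read 9.86, 9.74 and 10.00 with PIK75, against 11.42, 11.40 and 11.56 in control cells. This was a 3.01-fold decrease (−1.59, SE 0.07, adjusted p = 4.03e-09), the smallest adjusted p of the set, and the other PDHB probe set also gave −1.59. The E2 subunit DLAT was 1.47-fold lower, at 9.84 to 10.16 with PIK75 against 10.54 to 10.65 in control cells (adjusted p = 4.56e-05). The E3 subunit DLD was 1.23-fold lower, at 11.23 to 11.52 with PIK75 against 11.67 to 11.72 in control cells (adjusted p = 0.00255). The E1 alpha subunit PDHA1, which pairs with PDHB, was not called, at 11.72 to 11.79 with PIK75 against 11.87 to 11.90 in control cells (−0.13, 95% interval −0.24 to −0.01, adjusted p = 0.0633). PDHX, the E3-binding protein of the complex and not a member of the set, was not called either (0.08, adjusted p = 0.322).

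**Figure D2:**
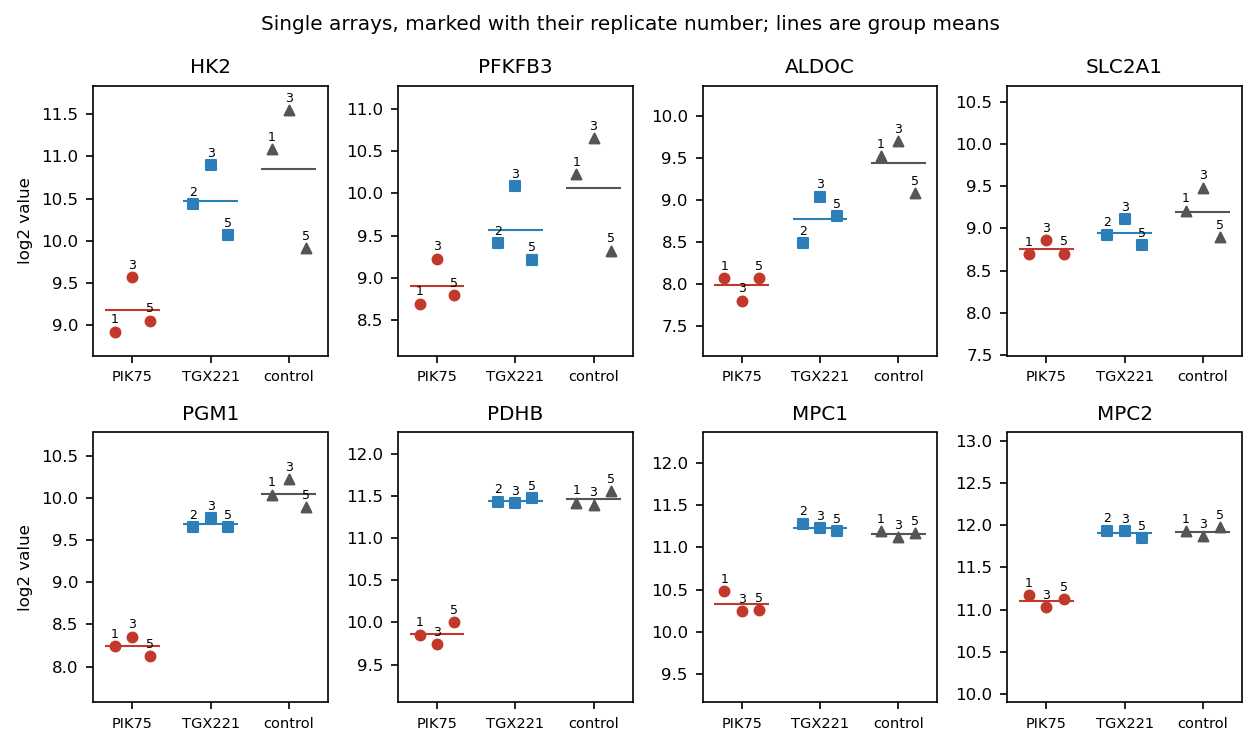
Log2 intensities of 8 members on every array, with PIK75, TGX221 and control from left to right, each point marked with its replicate number and all panels spanning the same log2 range. HK2, PFKFB3 and SLC2A1 are spread widely within the control group, while PDHB, MPC1 and MPC2 are tight there and lie apart from PIK75.

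The differences between forms of one enzyme were also taken within each array, which shows unequal change only. With PIK75 the difference HK2 minus HK1 was −1.02 ± 0.32 log2 units, against 0.47 ± 0.72 in control cells (SD, n = 3 each), a change of −1.49. The changes were −0.90 for PFKM minus PFKL, −0.71 for PFKP minus PFKL, −1.12 for ALDOC minus ALDOA and −0.83 for LDHA minus LDHB. For ENO2 minus ENO1 the change was 0.65, and for SLC2A3 minus SLC2A1 it was 0.63. Each of these changes had p = 0.1 in a two-sided exact permutation test, the smallest that 3 arrays against 3 allow. With TGX221 the same p was reached, with smaller changes of the same sign, for PFKM minus PFKL (−0.09), PFKP minus PFKL (−0.21), ALDOC minus ALDOA (−0.55), ENO2 minus ENO1 (0.13) and LDHA minus LDHB (−0.15). For HK2 minus HK1 the change with TGX221 was −0.36 (exact permutation p = 0.4), and for SLC2A3 minus SLC2A1 it was 0.32 (exact permutation p = 0.3). Pairs with PFKFB2 are not given, since its probe sets disagree in direction. All these differences rest on the brightest probe set of each gene. In those probe sets the inducible or tissue-restricted form was lower by more with PIK75 in the hexokinase and aldolase pairs. In the enolase pair the neuronal form ENO2 was lower by less than ENO1.

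With TGX221, no member passed the test. Of the 30 members, 0 were higher and 0 were lower than in control cells by limma at an adjusted p below 0.05, in a comparison that called 0.809% of all genes higher and 0.399% lower. At an unadjusted p below 0.05, 8 members were lower and 0 higher, against 8.89% of all genes lower at that level. The median log2 difference of the members was −0.11, against −0.0017 over all genes, and 24 of the 30 differences were below 0. Over all genes 10023 of 19775 differences were below 0, and 1999 of 3487 among genes with a mean of at least 10. The member with the smallest p was PGM1, at 9.65, 9.76 and 9.65 with TGX221 against 10.04, 10.22 and 9.89 in control cells (−0.36, 95% interval −0.54 to −0.18, adjusted p = 0.0605). ALDOC had the largest difference, at 8.49, 9.04 and 8.81 with TGX221 against 9.52, 9.69 and 9.08 in control cells (−0.65, adjusted p = 0.0642). In both genes all TGX221 arrays lay below all control arrays.

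Among the other enzymes, PGK1 read 13.63, 13.73 and 13.70 with TGX221 against 13.92, 14.04 and 13.86 in control cells (−0.25, adjusted p = 0.0824). A dimmer PGK1 probe set, with a mean of 10.8, was called lower with TGX221 (−0.48, adjusted p = 0.0499 among all single-symbol probe sets), the only one called of the members' 67. ENO1 read 13.20 on all 3 TGX221 arrays against 13.33 to 13.51 in control cells (−0.23, adjusted p = 0.0806). With trended and robust spread estimates, with array weights, or with scaling to the hybridization spikes, 5 members were called lower, and PGM1, ALDOC, PGK1 and ENO1 were among them in each case. HK2 gave a wide interval, at 10.43, 10.90 and 10.07 with TGX221 against 11.09, 11.55 and 9.91 in control cells (−0.38, 95% interval −1.11 to 0.34, adjusted p = 0.59), and control replicate 5 lay below all TGX221 arrays. Without that array the HK2 difference was −0.85 (adjusted p = 0.142), and without control replicate 3 it was −0.04 (adjusted p = 0.978). The mitochondrial members gave narrow ones. PDHB differed by −0.02 (95% interval −0.17 to 0.13), MPC1 by 0.07 (−0.07 to 0.22) and MPC2 by −0.02 (−0.14 to 0.11), so that for these 3 genes a decrease as large as that with PIK75 lies outside the interval.

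PIK75 and TGX221 were compared directly in the same fit, although their doses differ, and no file allows a check of the millimolar unit labelled for TGX221. The comparison is thus between these treatments and not between equal doses. Relative to TGX221, 18 members were lower with PIK75 and 0 were higher, where 22.3% of all genes were lower and 25.1% higher. The median was −0.34, against 0.06 over all genes. Among the 20 members with a mean log2 value of at least 10, 14 were lower, with a median of −0.39. Of the 3487 genes of that brightness, 1632 were lower and 795 higher, with a median of −0.12. PDHB had the largest difference, at 9.86, 9.74 and 10.00 with PIK75 against 11.43, 11.42 and 11.47 with TGX221 (2.97-fold lower, adjusted p = 5.55e-09). PGM1 followed, at 8.24, 8.36 and 8.13 with PIK75 against 9.65, 9.76 and 9.65 with TGX221 (2.73-fold lower, adjusted p = 3.76e-08). HK2 was 2.43-fold lower with PIK75 than with TGX221 (−1.28, adjusted p = 0.00741). MPC1 (−0.90), MPC2 (−0.80), PFKM (−0.76), LDHA (−0.71) and PGK1 (−0.70) were called lower as well. SLC2A1 was not called (−0.19, adjusted p = 0.215), nor was PFKFB3 (−0.67, adjusted p = 0.0767). The comparisons with the control share its arrays, so likeness between them is not taken as a result.

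**Figure D3:**
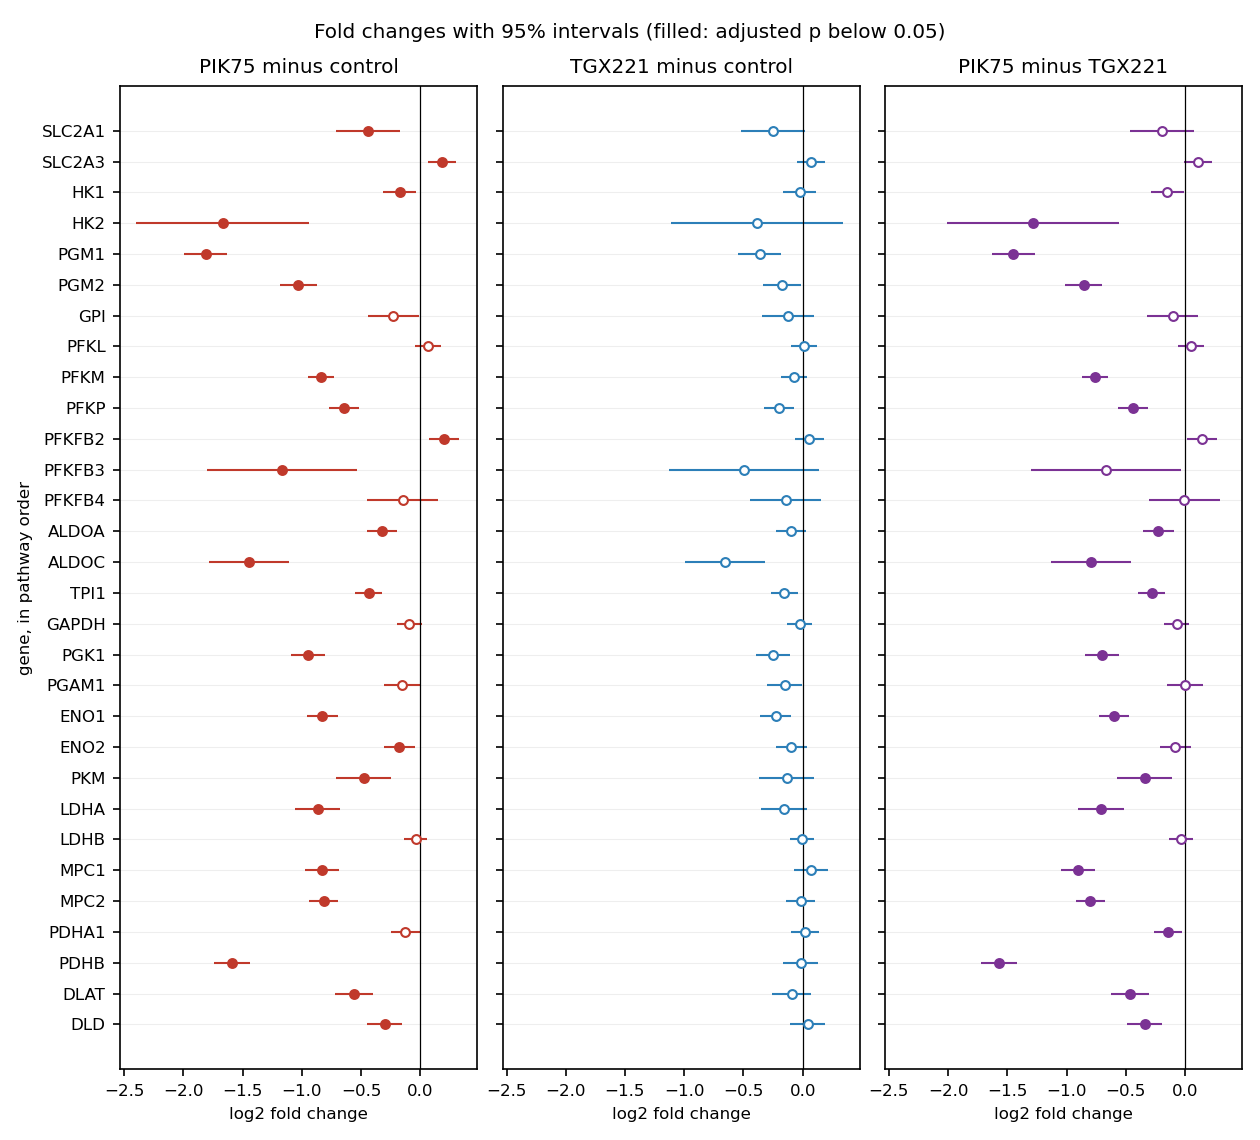
Log2 differences of each member from the control with 95% intervals from the limma fit, in pathway order, for PIK75 and TGX221. With PIK75, 21 members were called lower and 2 higher, while for TGX221 0 were called and the widest intervals belong to HK2 and PFKFB3.

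The members were covered by 67 probe sets with a single symbol, and 21 members had more than 1. Of the 37 probe sets that were not the brightest of their gene, 21 were called lower with PIK75, 4 higher and 12 not. Most of the exceptions were dim, and of the 25 such probe sets with a mean of at least 8, 18 were called lower and 1, of PFKL, higher. Over all genes, each read from its brightest probe set, 25.2% were called lower and 35.2% higher. The share over all single-symbol probe sets is not given here, so these counts have no like background. PDHA1 was not called in its brightest probe set, but its other probe sets were lower, by −0.19 (adjusted p = 0.00769) and −0.64 (adjusted p = 1.97e-05). ENO1 had a second bright probe set at −1.20, and a dim one at 0.12 that was not called. PKM had a second probe set at 0.09 that was not called.

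**Figure D4:**
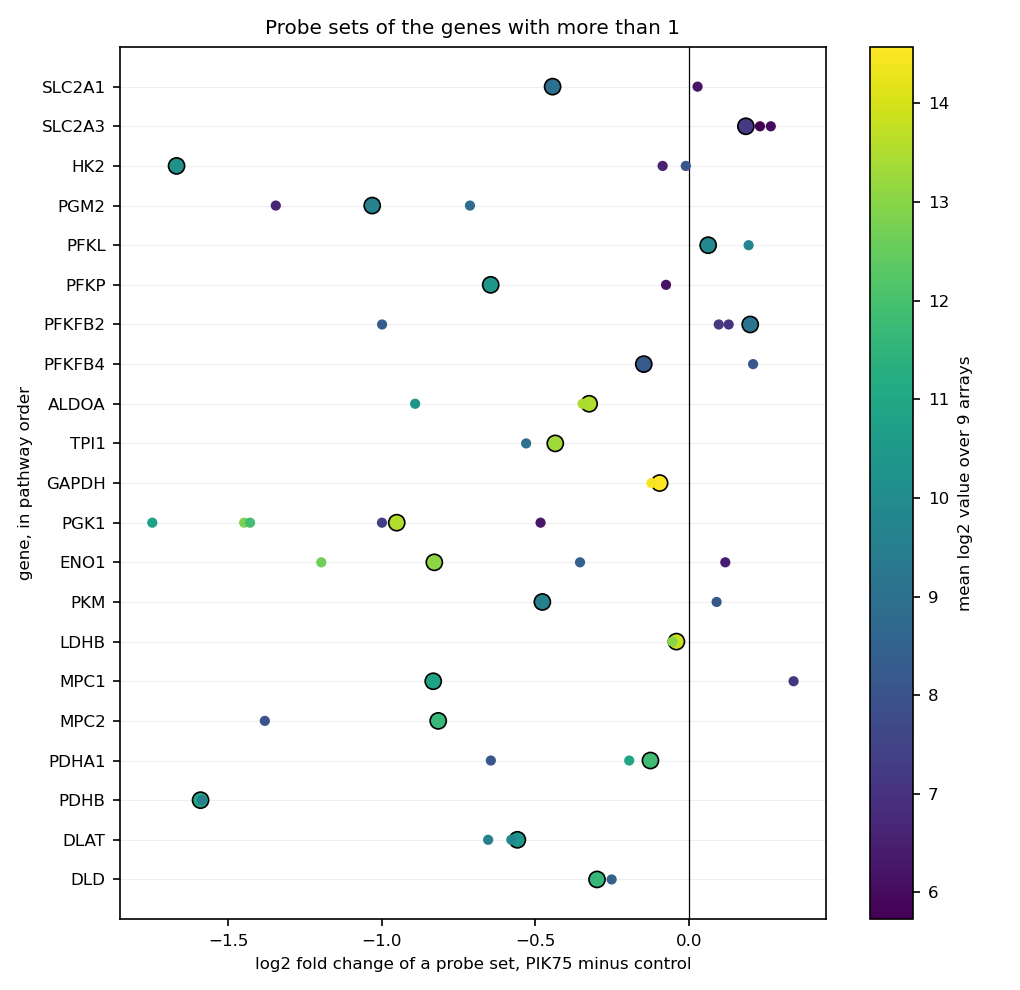
Log2 difference between PIK75 and control for every probe set of the 21 members that have more than 1, with 1 row per gene and the brightest probe set of each gene marked apart. The 6 PGK1 probe sets all lie below 0, whereas those of SLC2A1, PFKFB2, PFKFB4, ENO1, PKM and MPC1 lie on both sides of 0. Those of HK2 also lie below 0, but the dimmer ones are close to it, at −0.01 and −0.09.

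The spread between the control arrays was itself uneven along the pathway. HK2 had the widest control range of all 19775 genes, at 1.64, and PFKFB3 ranked 5, at 1.33. PFKFB4 (0.74), ALDOC (0.61) and SLC2A1 (0.59) were also among the 50 genes with the widest range, which makes 5 of the 30 members (16.7%) against 0.253% of all genes. Control replicate 5 gave the lowest of the control values in 22 of 30 members (73.3%), against 33.9% of all genes. Replicate 3 gave the highest value in 18 members (60%) in the control group, 16 (53.3%) in the PIK75 group and 15 (50%) in the TGX221 group, against 31.8%, 25.7% and 32.6% of all genes. Without control replicate 5, 24 members were lower with PIK75 and the median was −0.54, and without control replicate 3, 19 were lower and the median was −0.41. For TGX221 against control the median was −0.16 without control replicate 5 and −0.06 without control replicate 3.

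Genes around the pathway were read in the same fit, and members of these lists are not members of the set above. In that fit 35.2% of all genes were higher and 25.2% lower with PIK75. With TGX221, 0.809% were higher and 0.399% lower. Of 34 other genes of glucose transport, glycolysis and pyruvate use, 16 were higher with PIK75 and 11 lower, with a median of 0.09, the same as over all genes. The transporters SLC2A13 (−2.00, adjusted p = 2.32e-09), which carries myo-inositol, SLC2A12 (−1.51) and SLC2A6 (−0.72) were lower, while mitochondrial phosphoenolpyruvate carboxykinase, PCK2, was higher (0.83, adjusted p = 1.11e-06). With PIK75 the means of SLC2A13 (7.73) and SLC2A12 (7.27) lay within the background gauge, so their differences may be no more than lower bounds. With TGX221, 1 gene of this list was called, the hexokinase-like HKDC1 (0.33, adjusted p = 0.0306), at means of 7.97 with TGX221 and 7.64 in control cells that both lie within the gauge. Of 13 genes of glycogen metabolism, 8 were lower with PIK75 and 3 higher, with a median of −0.34. The branching enzyme GBE1 (−1.90), the primer protein glycogenin GYG1 (−1.09), PHKB (−0.91), a subunit of phosphorylase kinase, and PGM2L1 (−0.70), which makes glucose 1,6-bisphosphate, had the smallest p-values. GYG1 was also lower with TGX221 (−0.36, adjusted p = 0.0306). With PIK75 the means of GBE1 (7.94) and GYG1 (7.12) lay within the background gauge, as did those of GYG1 with TGX221 (7.85) and in control cells (8.21).

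Of 6 regulators of pyruvate dehydrogenase, 3 were lower with PIK75 and 1 higher, against 25.2% and 35.2% of all genes. The kinases PDK1 (−2.56) and PDK3 (−1.37), which switch the complex off, were lower, as was the phosphatase PDP1 (−0.91), which switches it on, and PDK2 was higher (0.20). The PDK1 mean with PIK75, 7.22, lay within the background gauge, so its difference may be no more than a lower bound. With TGX221, 0 of the 6 were called by limma, and 2 were lower at an unadjusted p below 0.05. Of 14 transcriptional regulators of the pathway, 6 were higher and 5 lower with PIK75, with a median of 0.08, against 0.09 over all genes. TXNIP, an inhibitor of glucose uptake, was lower (−1.07), as were MLXIP (−0.44), a glucose-sensing factor, and ARNT (−0.39), the partner of the hypoxia-inducible factors, while MYC was higher (0.49). MYC lay within the background gauge in both groups, at means of 7.39 with PIK75 and 6.91 in control cells. Its relative MYCN, named after its values were seen, was bright, at 13.88 with PIK75 and 13.73 in control cells (0.16, adjusted p = 0.0185). With TGX221, 1 of the 14 was called, the TXNIP relative ARRDC4 (−0.37, adjusted p = 0.0412). Of 14 citrate cycle genes, 5 were higher with PIK75 and 4 lower, with a median of −0.01. These counts lie near the shares over all genes, 35.2% higher and 25.2% lower. SUCLG1 (0.37) and MDH2 (0.30) were higher, and MDH1 (−0.26) and SDHC (−0.30) lower, and with TGX221 0 of the 14 were called by limma or reached an unadjusted p below 0.05.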

How the data were processed

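The values analysed are the log2 intensities of 54675 probe sets on 9 Affymetrix arrays as deposited by the authors, made with RMA (version not given) per the submitters' processing notes. Per the labels' protocols, each array was hybridized with cRNA from 2 ug of total RNA. Depth does not apply to arrays, and the number of arrays, 3 per group, limits the precision. Gene symbols came from the platform annotation: 41091 probe sets carry 1 symbol, 1801 several, 11721 none and 62 are controls. Each of 19775 genes was represented by its single-symbol probe set with the highest mean over the 9 arrays. All 9 arrays were fitted with limma 3.58.1 (R 4.3.3) with 3 group means and no covariate, and p-values received Benjamini-Hochberg adjustment over the 19775 genes, with calls at an adjusted p below 0.05. Probe sets were tested in the same way over all single-symbol probe sets. The fit was tested on simulated data. Control samples are labelled as having no treatment, but the protocol names DMSO for them, which is followed here.

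The members and gene lists were chosen with earlier results of these data known. All measured members are named, with up to 4 genes of each other list with the smallest p in PIK75 against control and any called with TGX221. Alternatives covered scaling, dim genes, probe set choice, the fit, thresholds, a replicate block and leaving out each array. Promoter windows came from RefSeq (GRCh38.p14).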

Additional observations from a re-analysis of the deposited data

How the results depend on the processing

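Under the alternatives tried, all counts of members lower with PIK75 than in control stayed within 1.5 times the 21 reported except that 13 were lower when at least 1.5-fold was required. Of these counts, 2 cover fewer than the 30 members. With probe sets of plain name 19 members were left, 16 of them lower, and without dim genes 28 were left, 22 of them lower. The count higher with PIK75 was 0 with scaling to the poly-A spikes, with scaling to the hybridization spikes, with probe sets of plain name, with the actin difference as a covariate and at 1.5-fold, and 1 without dim genes, with the mean of a gene's probe sets and at an adjusted p below 0.01. The median for PIK75 against control was −0.81 with the hybridization spikes, −0.34 with the mean of probe sets and −0.64 with plain probe sets. For TGX221 against control, 1 member was lower with the poly-A spikes and without dim genes, and 5 with the hybridization spikes, with trended and robust spread, and with array weights. For PIK75 against TGX221, 1 member was higher with array medians, with cyclic loess, without dim genes and with the mean of probe sets, 29 were lower with the hybridization spikes and 11 at 1.5-fold, and the median was −0.49 with the poly-A spikes, −0.63 with the hybridization spikes and −0.22 with the actin covariate. Leaving out 1 array at a time gave 2 higher, 19 to 24 lower and medians of −0.54 to −0.41 for PIK75 against control. For TGX221 against control it gave 0 higher, 0 to 2 lower and medians of −0.16 to −0.06. For PIK75 against TGX221 it gave 0 to 1 higher, 16 to 19 lower and medians of −0.40 to −0.25. Directions turned with the hybridization spikes for SLC2A3 (−0.17), PFKL (−0.29) and PFKFB2 (−0.15) in PIK75 against control and for SLC2A3 (−0.18), PFKL (−0.24) and PGAM1 (−0.29) in PIK75 against TGX221. With the mean of probe sets PFKFB2 turned to −0.14 against control and −0.21 against TGX221. With plain probe sets SLC2A1 (0.028), PFKFB2 (−0.999) and ENO1 (0.12) turned against control, and PFKFB2 (−0.86) and ENO1 (0.15) against TGX221. The alternatives for scaling and probe sets change these values by construction, and the cause of the other changes was not tested. The labels do not say what the replicate numbers share, and over all genes the deviations of same-numbered arrays correlated at −0.13, 0.12 and −0.05 for PIK75 and control, 0.08 and −0.02 for TGX221 and control, and 0.06 and 0.23 for PIK75 and TGX221, so the numbers were not taken as pairs. Over the members alone the values were −0.53, 0.64 and 0.23, then 0.89 and 0.81, then 0.50 and 0.28. With a replicate block the members called were 21 lower and 2 higher for PIK75 against control, 0 and 0 for TGX221 against control, and 18 lower and 0 higher for PIK75 against TGX221, the same counts, but HK1 lost its call (adjusted p = 0.0609) and GPI gained one (adjusted p = 0.0411) in PIK75 against control, and PDHA1 lost (0.209) and PFKFB3 gained (0.0124) one in PIK75 against TGX221.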

Other observations

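The control arrays differed from one another in a set of genes that reaches beyond the pathway. The genes with the widest range over the 3 control arrays were HK2 (1.64), the prolyl hydroxylase EGLN3 (1.44), the angiogenic factor VEGFA (1.41), NDRG1 (1.35) and PFKFB3 (1.33), followed by NRN1 (1.31) and the heme oxygenase HMOX1 (1.23). EFCAB3 (1.15), MXI1 (1.15), STC2 (0.99) and FTX (0.96) were also among the 15 widest. So were the histone demethylase KDM3A (0.88), INSIG2 (0.84) and the collagen-modifying enzymes PLOD2 (0.83) and P4HA1 (0.81). In 14 of these 15 genes, all but FTX, control replicate 3 was highest and control replicate 5 lowest. This order was seen in 17 of the 30 pathway members (56.7%) and 16.9% of all genes. These genes were chosen after their values were seen, and EGLN3, VEGFA, NDRG1, KDM3A and P4HA1 are known as hypoxia-responsive genes. The source of the spread was not tested.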
